A study of Homo sapiens with 2 samples.

Results

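The cyclins of G1 and S phase and their kinases are 10 genes, taken by name from the deposited counts: the D cyclins CCND1, CCND2 and CCND3, the E cyclins CCNE1 and CCNE2, the A cyclins CCNA1 and CCNA2, and the kinases CDK2, CDK4 and CDK6. All 10 were found once each among the 60664 genes of the files, of which 19890 are protein-coding. They were measured by RNA-seq in 2 libraries of untreated, wild-type HEK293T cells, a long-established human line derived from embryonic kidney, which carries adenovirus sequences as well as the large T antigen of SV40. The series comes from work on mapping R-loops, and its labels hold 1 group with no contrast, so the values describe levels within the group and the spread between replicates 1 and 2. The cell line entry of replicate 2 reads HEK294T, 1 digit off its own title, and was taken as HEK293T.

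Replicate 1 held 18011638 assigned counts and replicate 2 held 18575058, and a count of 0 would allow up to 0.167 and 0.162 CPM (counts corrected for library size). Over 21018 genes the spread between the libraries was wider than counting alone gives (chi-square per degree of freedom 12.7), with a common biological coefficient of variation of 15.6%. The labels do not state separate cultures, so this spread may be technical. Of 7 genes reported in HEK293 lines, 6 were detected, PAX2 (23 and 15 counts) being the exception. Their summed level was 675 and 602 TPM (counts per exon length, scaled to a common total). Of 9 markers of blood, endothelium, fibroblasts, liver and keratinocytes, 6 had 0 counts in both libraries and the sum was 0.0778 and 0.0116 TPM. Each value averages over all cells taken, so fewer expressing cells and less RNA per cell cannot be told apart.

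Cyclins are the regulatory subunits of cyclin-dependent kinases, and a kinase is active only when a cyclin is bound. D cyclins pair with CDK4 and CDK6 in G1 phase and phosphorylate the retinoblastoma protein RB, which frees E2F transcription factors. E2F targets include the E and A cyclins, which pair with CDK2 to start and carry on DNA synthesis. Large T antigen and adenovirus E1A are known to bind RB. Binding of these viral proteins to RB was not measured here.

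The sequences before the starts of these genes are shown because paralogues of the set stood far apart in level. Starts were taken from RefSeq (GRCh38.p14) for 6 of the genes, CCNA1, CCNA2, CCND3, CCNE1, CDK4 and CDK6, 9 starts in all. The other genes of the set were not searched, and their absence is not a finding about RefSeq. Before each of the 9 starts, 250 bases were searched on both strands for 5 motifs. These were the E2F site (TTTCCCGC, TTTCGCGC, TTTGCCGC or TTTGGCGC), the cell cycle homology region CHR (TTTGAA or TTCGAA or TTTAAA or CTTGAA), the cyclic AMP response element CRE (TGACGTCA), the CCAAT box and the E box (CACGTG). Capitals mark the matches. For CCNA1 and CDK4 only the stretch free of annotated exons is printed. CCNA2 and CCNA1 show the A cyclin pair, CCNE1 the E cyclin with no shared exons, and CDK4 and CDK6 the kinase pair. The printed stretches lie at chr4:121823884-121824133 on the minus strand for CCNA2, chr13:36431777-36431902 on the plus strand for CCNA1 and chr19:29811741-29811990 on the plus strand for CCNE1. They lie at chr12:57752448-57752560 on the minus strand for CDK4 and chr7:92836574-92836823 on the minus strand for CDK6. Each is read 5′ to 3′ along the strand of its gene. Those of CCNA1 and CDK4 lie inside the annotated spans of these genes, so they precede a RefSeq start and not the whole gene.
CCNA2: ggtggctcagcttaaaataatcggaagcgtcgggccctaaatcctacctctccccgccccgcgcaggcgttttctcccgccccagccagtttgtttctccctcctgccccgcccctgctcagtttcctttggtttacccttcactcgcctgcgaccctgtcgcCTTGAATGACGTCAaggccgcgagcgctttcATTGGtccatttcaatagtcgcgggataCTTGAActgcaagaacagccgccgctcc
CCNA1: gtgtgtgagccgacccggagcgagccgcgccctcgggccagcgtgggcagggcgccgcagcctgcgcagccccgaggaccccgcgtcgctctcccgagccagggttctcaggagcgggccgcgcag
CCNE1: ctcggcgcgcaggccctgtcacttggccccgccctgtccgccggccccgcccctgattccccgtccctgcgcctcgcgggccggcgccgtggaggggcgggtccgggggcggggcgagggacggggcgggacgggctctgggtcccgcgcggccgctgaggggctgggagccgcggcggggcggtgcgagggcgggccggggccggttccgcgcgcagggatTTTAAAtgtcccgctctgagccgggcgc
CDK4: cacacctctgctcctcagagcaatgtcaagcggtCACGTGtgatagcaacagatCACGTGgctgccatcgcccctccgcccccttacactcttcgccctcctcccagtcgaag
CDK6: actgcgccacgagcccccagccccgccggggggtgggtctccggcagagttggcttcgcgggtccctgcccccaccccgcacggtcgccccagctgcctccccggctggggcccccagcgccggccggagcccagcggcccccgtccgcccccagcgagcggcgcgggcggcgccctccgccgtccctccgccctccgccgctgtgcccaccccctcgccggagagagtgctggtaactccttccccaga

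The CCNA2 window held 1 CRE, from 81 to 74 bases before the start, directly after a CHR word at 87 to 82, a second CHR word at 28 to 23 and 1 CCAAT box at 56 to 52. Of 35116 windows of the same length over all genes, 1.65% held a CRE, 29.1% a CHR word and 32.0% a CCAAT box. The CDK4 window held 3 E boxes, the sites bound by MYC and related factors, of which the 2 farthest from the start are in the printed stretch. An E box was found in 6.34% of all windows and 3 or more in 0.0797%. The CCNE1 window held 1 CHR word, from 28 to 23 bases before the start, and 2 of the 3 CCND3 windows held a CCAAT box. The windows of CCNA1 and CDK6 held none of the 5 motifs. The E2F words were in 0 of the 9 windows searched, which cover 6 of the 10 genes, and in 2.79% of all windows. A match is a description of letters in a window and not a binding site, and a missing match says nothing about a factor.

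CDK4, CCNA2 and CDK2 led the 10 genes, and CCNA1 was lowest. Pairs of library values are given with replicate 1 before replicate 2, and errors are the SD over the 2 libraries. Of the 10, 9 reached 1 CPM in each library and are taken as detected, against 65.9% of protein-coding genes. The median of the 10 was 12.4 TPM, against 2.88 TPM over protein-coding genes, and 8 of 10 lay above that median. In order of mean TPM they were CDK4, CCNA2, CDK2, CCNE1, CCNE2, CCND3, CCND2, CDK6, CCND1 and CCNA1. Of the 9 neighbouring pairs in this order, 7 were apart, in that both library values of one gene lay above both of the next. The library values of CCNE2 and CCND3 overlapped, as did those of CDK6 and CCND1.

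**Figure D1:**
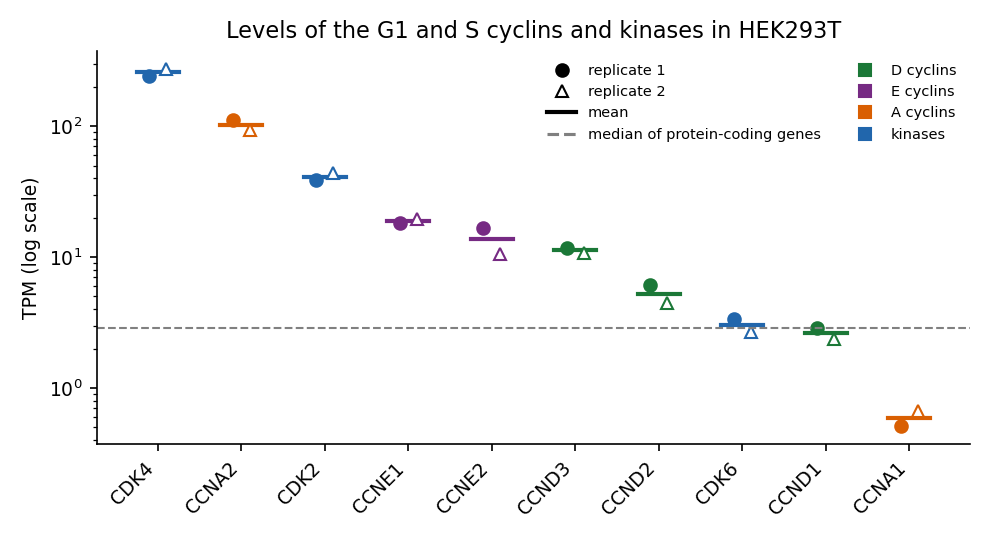
TPM on a log axis for each gene in replicate 1 (filled circles) and replicate 2 (open triangles), with the mean as a bar and the protein-coding median of 2.88 TPM as a dashed line. The means run from 259 TPM for CDK4 to 0.586 TPM for CCNA1, and the library values of most neighbours do not overlap.

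The D cyclins, which carry growth factor signals to the cell cycle, were the lowest family per length, with a summed level of 20.7 and 17.5 TPM, against 35.0 and 30.1 TPM for the E cyclins. In CPM the order turned, with 63.0 and 54.9 CPM for the D cyclins and 57.4 and 47.8 CPM for the E cyclins. CCND3 (ENSG00000112576, chromosome 6 from 41934934 to 42050357, minus strand) had 590 and 582 counts, or 32.8 and 31.3 CPM. Per length this was 11.7 and 10.8 TPM (mean 11.2 ± 0.698, SD, n = 2). It was the highest of the 3 in both libraries and stood at percentile 71.9 of protein-coding genes.

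CCND2 (ENSG00000118971, chromosome 12 from 4269771 to 4305353, plus strand) had 425 and 332 counts, or 23.6 and 17.9 CPM, and 6.10 and 4.42 TPM (5.26 ± 1.18). CCND1 (ENSG00000110092, chromosome 11 from 69641156 to 69654474, plus strand) had 120 and 106 counts, or 6.66 and 5.71 CPM, and 2.89 and 2.37 TPM (2.63 ± 0.367). CCND1, the D cyclin best known as an oncogene, thus lay at percentile 48.7 of protein-coding genes. The values of the 3 genes did not overlap. CCND3 was 4.06-fold and 4.54-fold above CCND1 per length, and 1.92-fold and 2.43-fold above CCND2. With longest coding transcripts as lengths CCND3 had 18.9 TPM on average, and the folds were 8.85 and 9.88 over CCND1 and 3.76 and 4.75 over CCND2.

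Within the D family CCND3 held 59.0% ± 3.28 of the TPM, CCND2 27.3% ± 2.98 and CCND1 13.7% ± 0.306. These shares depend on length, since the annotated exons merge to 5761 bases for CCND3, 7988 for CCND2 and 4761 for CCND1, while the longest coding transcript of CCND3 is 2394 bases. With longest coding transcripts as lengths CCND3 held 74.4% ± 2.63, and by counts alone 54.5% ± 3.59. CCND3 came first and CCND1 last on each of the 3 scales.

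**Figure D2:**
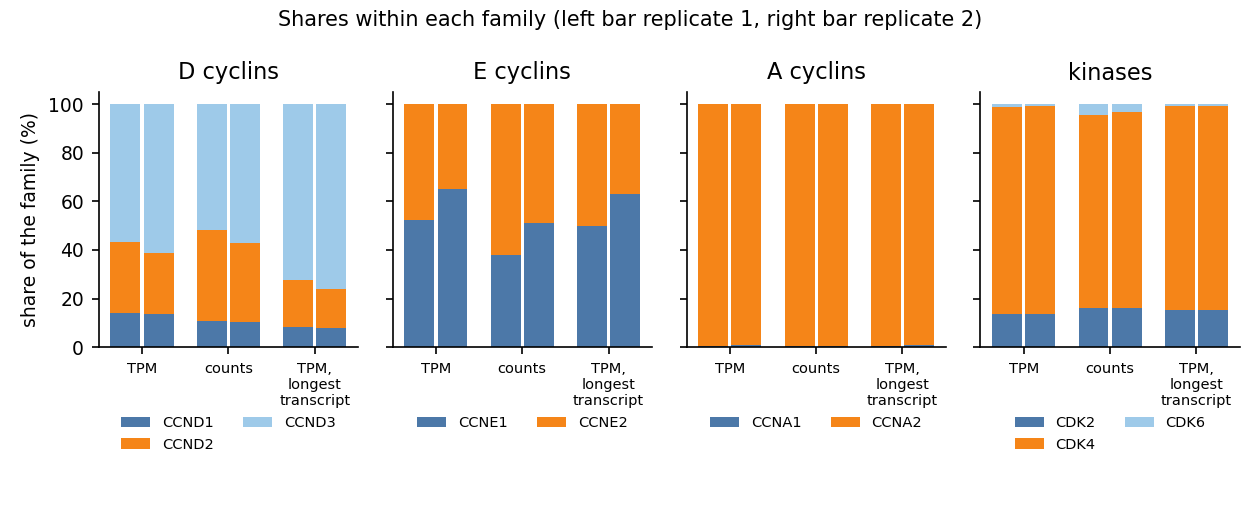
Share of each gene within its family, in percent, for replicate 1 (left bar of each pair) and replicate 2 (right bar), by TPM, by counts and by TPM with the longest coding transcript. CCND3, CCNA2 and CDK4 hold the largest part of their families on every scale, while the E cyclins change places between TPM (CCNE1 58.6%) and counts (CCNE1 44.4%).

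CDK4 (ENSG00000135446, chromosome 12 from 57747727 to 57756013, minus strand), the D cyclin kinase targeted together with CDK6 by inhibitors such as palbociclib, had 6534 and 8002 counts. These were 363 and 431 CPM, with exact 95% counting intervals from 354 to 372 and from 421 to 440 CPM. Per length CDK4 had 242 and 275 TPM (259 ± 23.5), which put it at percentile 98.1 of protein-coding genes. CDK6 (ENSG00000105810, chromosome 7 from 92604921 to 92836573, minus strand) had 360 and 305 counts, or 20.0 and 16.4 CPM, and 3.37 and 2.65 TPM (3.01 ± 0.509), at percentile 50.7.

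CDK4 stood 71.8-fold above CDK6 per length in replicate 1 and 104-fold in replicate 2. The size of this gap depends on the exon length of CDK6, 12239 bases, against 3094 for CDK4: in CPM it was 18.2-fold and 26.2-fold. CDK4 held 85.4% ± 0.357 of the TPM of the 3 kinases and CDK6 1.01% ± 0.255. The summed level of CDK4 and CDK6 exceeded that of the 3 D cyclins 11.8-fold and 15.8-fold in TPM, and 6.07-fold and 8.14-fold in CPM. These are RNA levels, and the amounts of protein and of complexes were not measured.

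The E cyclins, which pair with CDK2 at the entry to S phase, lay within 1.85-fold of each other per length. CCNE1 (ENSG00000105173, chromosome 19 from 29811991 to 29824312, plus strand) had 392 and 452 counts, or 21.8 and 24.3 CPM, and 18.3 and 19.6 TPM (18.9 ± 0.912). CCNE2 (ENSG00000175305, chromosome 8 from 94879770 to 94896678, minus strand) had 641 and 436 counts, or 35.6 and 23.5 CPM, and 16.7 and 10.6 TPM (13.6 ± 4.35). CCNE1 was above CCNE2 in both libraries in TPM, by 1.09-fold and 1.85-fold, while by counts it was 0.612 and 1.04 times CCNE2. With longest coding transcripts as lengths it was 0.997 and 1.69 times CCNE2. In replicate 1 their order thus turned with the length correction, the exons merging to 2461 bases for CCNE1 and 4397 for CCNE2. CCNE2 also had the widest relative spread between the libraries among the 9 detected genes.

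CCNA2 and CCNA1 encode the A cyclins. CCNA2 serves dividing somatic cells in S phase and at the start of mitosis, and CCNA1 is known mainly from male germ cells. CCNA2 (ENSG00000145386, chromosome 4 from 121816444 to 121823883, minus strand) had 2677 and 2423 counts, or 149 and 130 CPM, and 112 and 93.9 TPM (103 ± 12.6), at percentile 95.3. CCNA1 (ENSG00000133101, chromosome 13 from 36431520 to 36442870, plus strand) had 10 and 14 counts, or 0.555 and 0.754 CPM, and 0.509 and 0.662 TPM (0.586 ± 0.108). It was the gene of the 10 that missed the detection threshold, but its exact 95% counting intervals, from 0.266 to 1.02 CPM and from 0.412 to 1.26 CPM, reach past 1 CPM in both libraries. CCNA2 held 99.4% ± 0.174 of the A cyclin TPM. It was 219-fold above CCNA1 in replicate 1 and 142-fold in replicate 2, folds that rest on the 10 and 14 counts of CCNA1.

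CDK2 (ENSG00000123374, chromosome 12 from 55966781 to 55972789, plus strand), the kinase of the E and A cyclins, had 1320 and 1590 counts, or 73.3 and 85.6 CPM, and 38.9 and 43.5 TPM (41.2 ± 3.26), at percentile 89.3. CDK4 was 6.22-fold and 6.32-fold above CDK2 per length, so the ratio of these 2 kinases was nearly the same in both libraries. The 4 E and A cyclins summed to 147 and 125 TPM, 3.78-fold and 2.86-fold above CDK2. In CPM these folds were 2.82 and 2.09. For the D cyclins and their kinases the RNA excess was on the side of the kinases. For CDK2 as the only kinase, with its partners, it was on the side of the cyclins, and it rested on CCNA2. CCNA2 also serves the start of mitosis, and the mitotic kinase CDK1, at 132 and 90.7 TPM, was left out of this comparison. With CDK1 counted, the side of the excess could differ. The E cyclins summed to 35.0 and 30.1 TPM, below CDK2.

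Most of these genes share exonic bases with a neighbour, which limits how exactly their counts can be read. CCNE1 and CCNA1 share none. The other 8 share with 11 genes, 10 of them on the opposite strand, and the sources used here do not say whether reads were counted by strand or how a read in 2 genes was treated. If each shared read was counted for both genes or for neither, shared reads cannot exceed the counts of the neighbour, and a count less the counts of all neighbours is a lower bound. The bounds given here hold under that condition.

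CDK4 shares 44.2% of its exonic bases with TSPAN31, a tetraspanin gene that had 2517 and 2829 counts. At least 4017 and 5173 of the CDK4 counts are therefore its own, more than the whole count of any other of the 10 genes. CCNA2 shares 9.24% with EXOSC9, an RNA exosome subunit with 2149 and 1667 counts, which leaves at least 528 and 756. CDK2 shares 16.8% of its exonic bases with ENSG00000258554 and PMEL, a melanosome gene. ENSG00000258554 lies on the other strand wholly inside CDK2 exons and had 380 and 413 counts, and PMEL had 362 and 440, so that at least 578 and 737 counts of CDK2 are its own. By these bounds alone the place of CCNA2 above CDK2 is not fixed. Nor is the size of the E and A cyclin excess over CDK2.

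For 3 genes the neighbours had more counts than the gene, and the bound is of no use. CCNE2 shares 37.0% of its exonic bases with INTS8, an Integrator subunit with 1003 and 862 counts, and 4 bases with ENSG00000272509, which had 19 and 34. CCND1 shares 10.4% with LTO1, which had 410 and 484 counts. CCND2 shares 12.5% with ENSG00000285901 on its own strand, with 481 and 487 counts, and 2.03% with CCND2-AS1, with 52 and 37. CCND3 and CDK6 are almost free of this: CCND3 shares 0.417% with ENSG00000223946, which had 0 and 1 counts, and CDK6 0.662% with CDK6-AS1, which had 7 and 6. The pseudogenes CDK4P1, CCND2P1, CCND3P1 and CCND3P2, found by name in the files, had 0 counts in both libraries.

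Between the libraries CCNE2 differed most among the 9 detected genes, and the counting intervals of 6 left out 0. The log2 ratio was taken as replicate 2 over replicate 1 after TMM scaling, and genes were counted at a mean count of 50 or more, which all but CCNA1 reached. Of these 9 genes, 0 were lower by 1 log2 or more and 0 were higher, against 1.92% and 0.143% of 14704 genes, a count that 9 genes at the background share would also give. A ratio below 0 was found for 6 of the 9 and above 0 for 3. CCNE2 was lowest at -0.57 (exact 95% counting interval from -0.75 to -0.39), and 8.75% of the 14704 genes had a ratio of that size or larger in either direction. CCND2 followed at -0.37 (from -0.58 to -0.16) and CDK6 at -0.25 (from -0.48 to -0.03). CCNA2, with more counts, had -0.16 (from -0.24 to -0.08). CDK4 at 0.28 (from 0.23 to 0.33) and CDK2 at 0.25 (from 0.15 to 0.36) were higher in replicate 2. The intervals of CCND1 (-0.19), CCND3 (-0.03), CCNE1 (0.19) and CCNA1 (0.40) took in 0. The counting intervals compare these 2 libraries alone and hold no variation between cultures.

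**Figure D3:**
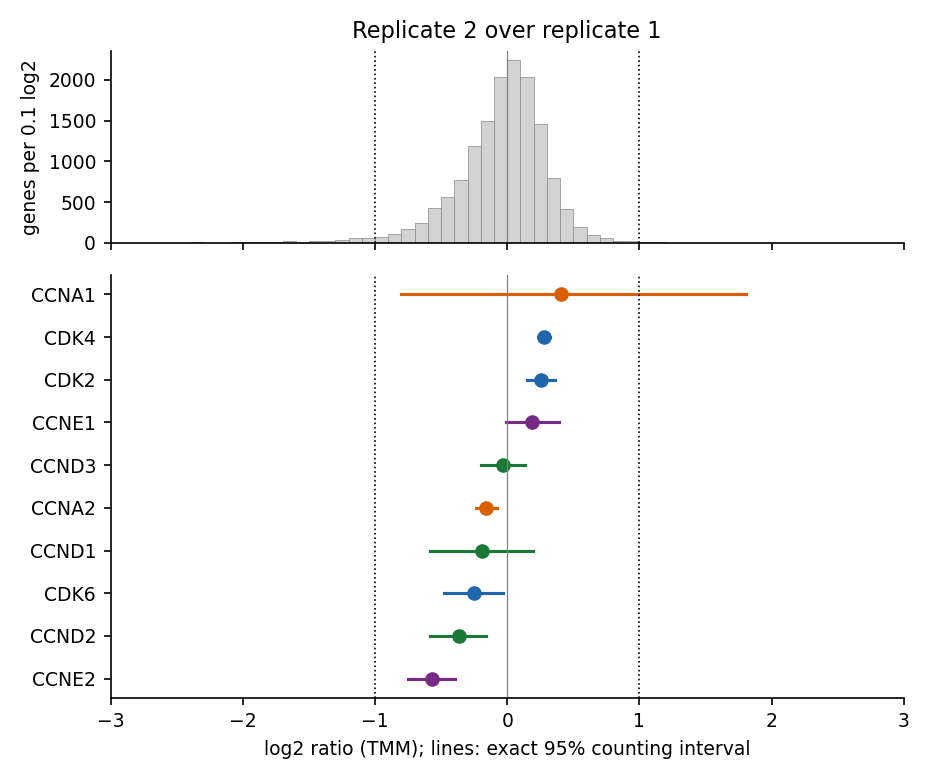
Upper panel, number of genes by log2 ratio of replicate 2 over replicate 1 for the 14704 genes at a mean count of 50 or more, with ratios beyond 3 drawn in the end bars. Lower panel, the ratio of each of the 10 genes with its exact 95% counting interval; dotted lines mark 1 log2, and all 10 ratios lie between them, from -0.57 for CCNE2 to 0.40 for CCNA1.

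Ratios below 0 were found for 4 of the 5 genes whose transcripts had under 50% GC. The longest coding transcript in GENCODE 29 had 36.9% GC for CCNE2, 39.5% for CDK6, 42.1% for CCNA2 and 45.5% for CCND2, all 4 with a ratio below 0. It had 53.6% for CDK4 and 52.9% for CCNE1, both with a ratio above 0. CDK2 at 48.4% was above 0, and CCND1 at 50.3% and CCND3 at 56.2% were below it. Over the 11974 genes at a mean count of 50 or more with a coding transcript, the median ratio of 20 GC classes ran from -0.47 in the lowest class to 0.13 in the class that holds CCND3. Relative to the median of their own class CCNE2 had -0.10, CDK6 -0.01 and CCNA2 -0.01, while CCND2 had -0.33, CDK2 0.24 and CDK4 0.20. After this centring, chosen after seeing the data, 7 of the 9 ratios were nearer 0 and 2, those of CCND1 and CCND3, were farther from it. The part of GC content in any one ratio was not tested.

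**Figure D4:**
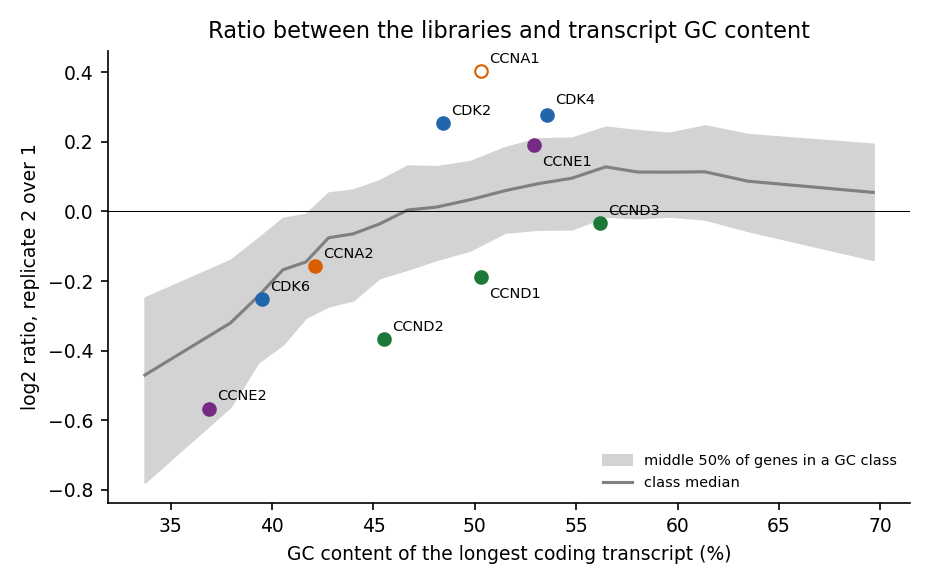
Log2 ratio of replicate 2 over replicate 1 against the GC content of the longest coding transcript, in percent, for the 10 genes (points, CCNA1 open because its mean count is under 50). The line joins the medians of 20 GC classes of the 11974 genes at a mean count of 50 or more with a coding transcript. Each median is drawn at the middle of its class, and the band is the middle 50%. CCNE2, CDK6 and CCNA2 lie within 0.10 log2 of the median of their own class, and CCND2 0.33 below its own. These gaps are to the class median and differ from the distance to the drawn line, as for CCNE2 near the upper edge of its class.

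Other genes of the pathway were taken from 9 lists of 84 genes, and all 84 passed 1 CPM in each library, against 65.9% of protein-coding genes. The lists were chosen with earlier results of these data known, so this share describes the chosen genes and not the pathway. At a mean count of 50 or more were 83 of them, of which 1 was lower by 1 log2 or more in replicate 2 and 0 were higher, near the background shares of 1.92% and 0.143%. That gene was CCNI, a cyclin outside the core cycle, with 1961 and 882 counts (log2 ratio -1.16).

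The genes named as CDK inhibitors, CDKN3 among them, were well represented. All 8 were above the protein-coding median and their own median was 36.0 TPM. CDKN2A, which encodes an INK4 inhibitor of CDK4 and CDK6 and, in another reading frame, ARF, had 524 ± 41.8 TPM, above CDK4 itself. Neighbours overlap 15.3% of its exonic bases. CDKN2B, also an INK4 gene, was lowest of the list at 3.14 ± 0.458 TPM. CDK4 and CDK6 summed to 245 and 278 TPM, against 643 and 580 TPM for the 4 INK4 genes. Of the latter sums CDKN2A made up 553 and 494 TPM. Its ARF and INK4 transcripts were counted together, so the level of INK4 transcripts alone is not known.

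The targets of these kinases and of E2F were also expressed. The 3 RB family genes had a median of 8.73 TPM, from RBL1 (6.10 ± 1.34) to RBL2 (12.8 ± 2.35), and the 10 E2F and DP genes 18.5 TPM, from the repressor E2F7 (5.09 ± 0.689) to the activator E2F1 (53.0 ± 2.65). The 14 S phase targets of E2F had a median of 83.6 TPM, from CDC6 (27.5 ± 1.32), which loads the replicative helicase, to the sliding clamp gene PCNA (752 ± 55.4). The lowest of them, CDC6, was thus above CCNE1, CCNE2 and each D cyclin per length.

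Regulators of CDK phosphorylation and small subunits had a median of 24.3 TPM over 10 genes. CKS2, a CDK-binding subunit with only 616 exonic bases, led with 1091 ± 101 TPM, and WEE1, the kinase that inhibits CDK1 and CDK2, was lowest at 7.22 ± 1.07. The 9 genes of cyclin turnover had a median of 7.93 TPM, from FBXW7 (2.48 ± 0.272), the F-box protein that directs cyclin E to degradation, to the RING subunit RBX1 (172 ± 9.10). The 5 mitotic genes had a median of 63.3 TPM, with CCNB1, the main mitotic cyclin, at 180 ± 5.16 and CCNB3 at 0.664 ± 0.0492.

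The 12 other cyclins had a median of 8.77 TPM, with CCNL2 at 88.3 ± 2.10 and CCNK at 6.12 ± 0.0263. Neighbours overlap 59.5% of the exonic bases of CCNK. The 13 other CDKs had a median of 8.53 TPM, from the transcriptional kinase CDK13 (1.95 ± 0.226) to CDK5 (51.3 ± 1.89). CDK4 thus stood above all 13.

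**Figure D5:**
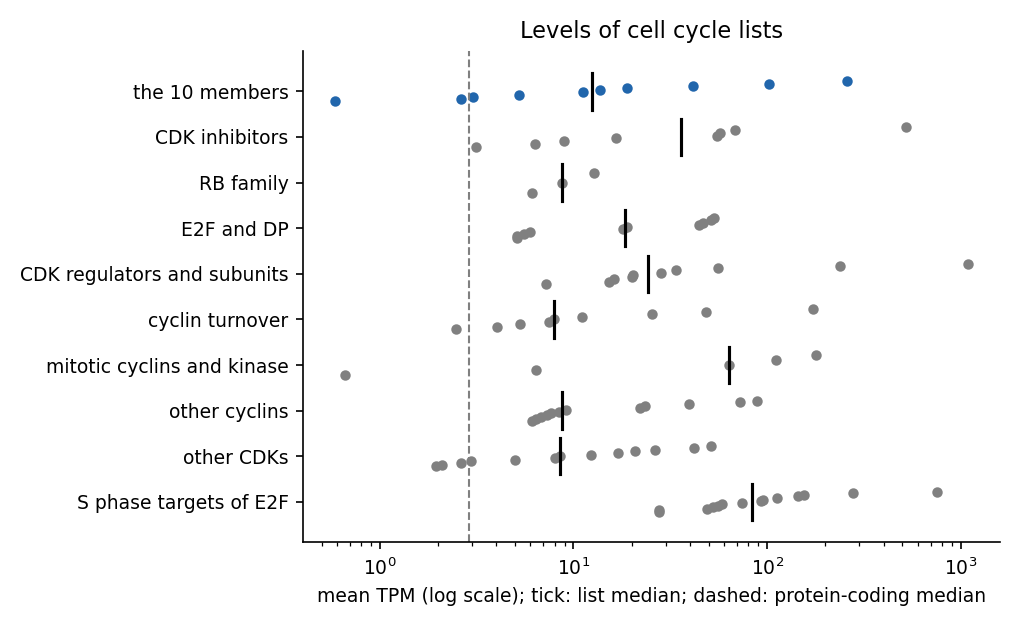
Mean TPM on a log axis of the 10 genes (blue, top) and of the 9 lists of other pathway genes (grey), each point 1 gene, with the list median as a tick and the protein-coding median of 2.88 TPM as a dashed line. The medians run from 7.93 TPM for cyclin turnover to 83.6 TPM for S phase targets, with the 10 genes at 12.4 TPM.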

How the data were processed

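RNA was extracted with TRIzol, treated with DNase I and reverse transcribed from an oligo(dT) primer, per the labels' protocols, so RNAs with a poly(A) tail were favoured. The authors deposited whole-number counts of reads for every Ensembl gene, with no normalisation, as a file for each library. The submitters' processing notes name build GRCh38 and the tools featureCounts 2.0.3, Trim Galore 0.6.7 and bcl2fastq 2.17. The aligner, annotation release, strandedness and treatment of overlaps were not given in the sources used here. Coordinates and lengths of merged exons were read from the files. Symbols matched 60463 of 60664 gene IDs, and gene types, transcript lengths and GC content came from GENCODE 29.

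CPM and TPM were computed here, TPM with the exon lengths in the files. Ratios between the libraries came from edgeR 4.0.16 (R 4.3.3), with a prior count of 2 and TMM factors of 1.01 and 0.989. The coefficient of variation came from edgeR with an intercept alone over 18315 genes. DESeq2 1.42.0 size factors (1 and 1) were an alternative. Intervals are exact 95% binomial (scipy 1.17.1) and, like the allowance of 3 counts for a count of 0, cover counting error only: without molecular identifiers, reads are not independent molecules. The interval of a ratio is of the unshrunk ratio. No test between groups was run, because the labels give 1 group. Of the steps, only the centring on GC content and TPM were tested on simulated data, the first with counting error alone and the second with noise-free counts. Replicates were kept as 2 samples.

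The genes and lists were chosen with earlier results of these data known. Of each list the highest and lowest genes by mean TPM are named, with any past 1 log2 between the libraries, and every gene sharing exonic bases with one of the 10. No genes are named for a likeness of pattern, since 2 libraries of 1 group hold none.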

Additional observations from a re-analysis of the deposited data

How the results depend on the processing

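At 0.5 CPM all 10 genes were detected, and at 2 CPM, or in either replicate alone, 9 were. Of the 9 neighbouring pairs in the order by TPM, 7 kept their direction with CPM, 8 with longest coding transcripts as lengths, 8 without replicate 1 and 9 without replicate 2. In the CPM order, library values overlapped for CCND3 and CCNE2, CCNE2 and CCNE1, CCNE1 and CCND2, and CCND2 and CDK6. With CPM, and with longest coding transcripts, the mean of CCND3 stood above those of CCNE1 and CCNE2. CCND3 held 54.5% of the D cyclins by counts and 74.4% by the longest coding transcript, CCNE1 44.4% of the E cyclins by counts, and CDK4 80.2% of the kinases by counts and 84.1% by the longest coding transcript; these follow from the lengths used. The percentiles of single genes moved by more than the SD between libraries in 10 cases and by less in 20. The 40 alternative ratios of single genes all stayed under 1 log2. Over all genes, the 282 lower and 21 higher became 562 and 214 at a mean count of 10, 154 and 2 at 200, and 2257 and 1172 with no filter. The 11974 genes with a coding transcript had 239 and 6, and 119 and 10 after centring on GC content, both alternatives added after seeing the data. No paired analysis was possible because there is 1 group. Depth limits CCNA1 most, at 10 and 14 counts.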
